A study of Mus musculus with 6 samples.

Results

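The 10 liver genes described here belong to the acute phase response and were followed in mice treated with FGF19. They are the serum amyloid A genes Saa1, Saa2, Saa3 and Saa4, the lipocalin gene Lcn2, the orosomucoid genes Orm1, Orm2 and Orm3, haptoglobin (Hp) and hemopexin (Hpx). The genes were taken by symbol from the deposited count tables, where they are 10 of 23284 genes listed, and all 10 passed the filter on low counts that left 12559 genes for testing. They were put together with results of the same comparison already known, so their differences between treatments are given as a description, without a test.

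The data are RNA-seq read counts from whole liver of C57BL/6 mice, which were male according to the methods of the study. The mice were 8 weeks old, went without food overnight and then received vehicle or FGF19 at 1 mg/kg, and fasting went on for the 6 h until the liver was taken. Each group held 3 mice with 1 library each, and no genetic change is named for either group. FGF19 is the human gut hormone that corresponds to mouse FGF15, so a human protein was given to mice that also have their own hormone, and all mice were fasted, so no fed animals stand beside them. Total counts were between 18994654 and 22920056 per library. Where a library has no count of a gene, as many as 3 counts remain possible, or between 0.136 and 0.159 CPM (library-scaled counts), a limit that covers counting error only because the reads carry no molecular identifiers. The markers of hepatocytes were high in every library, with a sum over 8 genes of 103072 to 108794 CPM in vehicle-treated mice and 97712 to 106391 CPM in FGF19-treated mice, and none of the 8 passed the test.

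Acute phase proteins are plasma proteins whose synthesis in hepatocytes changes during infection, injury and inflammation. Interleukin-6 acts through STAT3, interleukin-1 and TNF act through NF-κB, and C/EBP factors act together with both at the promoters of these genes. The serum amyloid A proteins travel on high density lipoprotein, lipocalin 2 binds iron-loaded bacterial siderophores, orosomucoids are acidic glycoproteins that carry lipophilic compounds, haptoglobin binds free haemoglobin and hemopexin binds free haem. In the liver, Saa1, Saa2 and Saa3 are known as inducible genes and Saa4 as a constitutively expressed one.

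The Saa genes lie together on chromosome 7 of mouse build mm9, in the order Saa3 (chr7:53967368-53971046, minus strand), Saa4 (chr7:53983369-53987913, minus strand), Saa1 (chr7:53995869-53998350, minus strand) and Saa2 (chr7:54007203-54009684, plus strand). Saa1 and Saa2 therefore point away from each other. Their exon sequences, 607 and 610 bases long, were 93.0% identical in a global alignment that counts gaps as differences, whereas Saa1 was 65.0% identical to Saa3 and 26.1% to Saa4. The 250 bases before the first annotated base of each gene are shown for Saa1 (chr7:53998351-53998600, minus strand) and Saa2 (chr7:54006953-54007202, plus strand), which had the largest fold differences of the family, and for Saa4 (chr7:53987914-53988163, minus strand), which had the smallest. All sequences were read from the mm9 genome, are written 5′ to 3′ on the strand of the gene, and end at the base before the gene. Capitals mark matches to TTGNNNAA, a short form of the C/EBP motif, on either strand.
Saa1: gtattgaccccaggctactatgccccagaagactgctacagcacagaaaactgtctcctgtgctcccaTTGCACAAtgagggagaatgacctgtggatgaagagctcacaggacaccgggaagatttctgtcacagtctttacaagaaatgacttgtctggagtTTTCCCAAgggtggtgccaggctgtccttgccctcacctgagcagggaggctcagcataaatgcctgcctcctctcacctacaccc
Saa2: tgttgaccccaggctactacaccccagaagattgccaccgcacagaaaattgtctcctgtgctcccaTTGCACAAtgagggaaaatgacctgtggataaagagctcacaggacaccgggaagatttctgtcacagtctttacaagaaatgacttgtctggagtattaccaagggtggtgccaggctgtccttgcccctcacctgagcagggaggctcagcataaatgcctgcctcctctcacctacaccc
Saa4: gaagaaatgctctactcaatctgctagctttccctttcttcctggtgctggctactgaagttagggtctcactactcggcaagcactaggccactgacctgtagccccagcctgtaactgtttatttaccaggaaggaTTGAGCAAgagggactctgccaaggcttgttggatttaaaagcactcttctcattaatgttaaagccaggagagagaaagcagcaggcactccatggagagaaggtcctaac
The Saa1 and Saa2 stretches were 94.8% identical and shared the match TTGCACAA, at -182 to -175 in Saa1 and -183 to -176 in Saa2, counted back from the start of the gene. The 250 bases before Saa4 were 50.7% identical to those of Saa1 and held TTGAGCAA at -112 to -105.

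The Orm genes lie side by side on the plus strand of chromosome 4, in the order Orm1 (chr4:63005600-63009196), Orm3 (chr4:63017196-63020545) and Orm2 (chr4:63023483-63026911). Their exons were 90.3% identical between Orm1 and Orm2, 85.6% between Orm1 and Orm3 and 88.2% between Orm2 and Orm3. Their upstream stretches are shown because the genes are so alike there while their values were far apart: Orm1 from chr4:63005350-63005599, Orm2 from chr4:63023233-63023482 and Orm3 from chr4:63016946-63017195. Capitals again mark TTGNNNAA on either strand, and also TATAAA, which was searched on both strands and does not overlap with it here.
Orm1: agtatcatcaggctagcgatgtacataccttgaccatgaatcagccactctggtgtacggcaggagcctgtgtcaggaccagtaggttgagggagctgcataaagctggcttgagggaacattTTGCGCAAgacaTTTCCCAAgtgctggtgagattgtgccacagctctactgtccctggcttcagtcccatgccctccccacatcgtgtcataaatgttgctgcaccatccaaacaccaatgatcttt
Orm2: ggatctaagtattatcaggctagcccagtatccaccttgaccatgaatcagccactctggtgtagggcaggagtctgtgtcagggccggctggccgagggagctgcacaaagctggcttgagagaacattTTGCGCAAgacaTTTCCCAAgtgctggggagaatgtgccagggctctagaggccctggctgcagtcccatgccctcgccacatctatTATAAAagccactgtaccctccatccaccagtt
Orm3: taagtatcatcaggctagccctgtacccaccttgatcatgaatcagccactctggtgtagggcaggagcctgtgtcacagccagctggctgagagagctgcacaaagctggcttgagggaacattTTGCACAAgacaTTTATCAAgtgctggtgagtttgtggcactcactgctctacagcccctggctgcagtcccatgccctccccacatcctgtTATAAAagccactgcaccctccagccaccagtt
Identity over these stretches was 80.5% for Orm1 and Orm2, 83.2% for Orm1 and Orm3 and 86.3% for Orm2 and Orm3. At the first of the marked sites Orm1 and Orm2 had TTGCGCAA, at -127 to -120 and -120 to -113, and Orm3 had TTGCACAA at -125 to -118. Orm2 and Orm3 had TATAAA at -33 to -28, and Orm1 had no such match in this window.

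The remaining genes stand alone. Lcn2 is on the minus strand of chromosome 2 (chr2:32240157-32243259, 6 exons), Hp on the minus strand of chromosome 8 (chr8:112099028-112103072, 5 exons) and Hpx on the minus strand of chromosome 7 (chr7:112740125-112748630, 10 exons). Counting all 10 genes, TTGNNNAA was found in the 250 bases before 10 of them, against 30.7% of 23102 promoters of the same length and 24.5% of the 12556 that belong to genes tested. TATAAA was found before 2 of the 10, against 12% of promoters and 6.48% of those of genes tested. On both strands, a fixed form of the NF-κB motif and the STAT form TTCNNNGAA were found before 0 of 10, against 0.359% and 6.83% of promoters, which says only that these letters are not in this window. The 10 stretches are not independent, since those of Saa1 and Saa2 were 94.8% identical and those of the Orm genes are alike as well. A match is a string of letters and was not tested as a binding site.

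Because paralogs can exchange reads, the exons were cut into all overlapping windows of 100 bases, the length of 1 read, and looked up among the exons of the other annotated genes. None of the 508 windows of Saa1 or the 511 of Saa2 occurred in another gene. Orm1 and Orm2 shared 47 windows, 7.03% of the 669 of Orm1 and 6.96% of the 675 of Orm2, and all windows of the other members occurred in no other gene. Reads that aligned to several places were left out of the counts, so reads from the shared stretch of Orm1 and Orm2 can be missing from both genes, and a read with sequencing errors could still be given to the wrong paralog.

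In the plot of levels by mouse and in the values that follow, the 3 FGF19-treated mice lay above the 3 vehicle-treated mice for 10 of 10 genes. Of all genes tested, 14.5% were higher without overlap between the groups, and since these 10 were chosen on this comparison, nothing is read from their count. The median log2 fold change of the 10 genes was 3.77, beside -0.00076 for all genes tested. The differences were far from equal. They fell into a set of 5 genes, Saa2, Saa1, Lcn2, Saa3 and Orm2, with differences of 51.3-fold to 310.0-fold, which were the 5 largest among the 12559 genes tested, and a set of 5 genes, Orm1, Orm3, Hpx, Hp and Saa4, with differences of 1.98-fold to 3.64-fold, which ranked between 50 and 278. A fold of at least 2 upwards was reached by 260 genes, 2.07% of those tested. In bulk liver RNA, more cells that express a gene and more RNA per cell cannot be told apart.

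**Figure D1:**
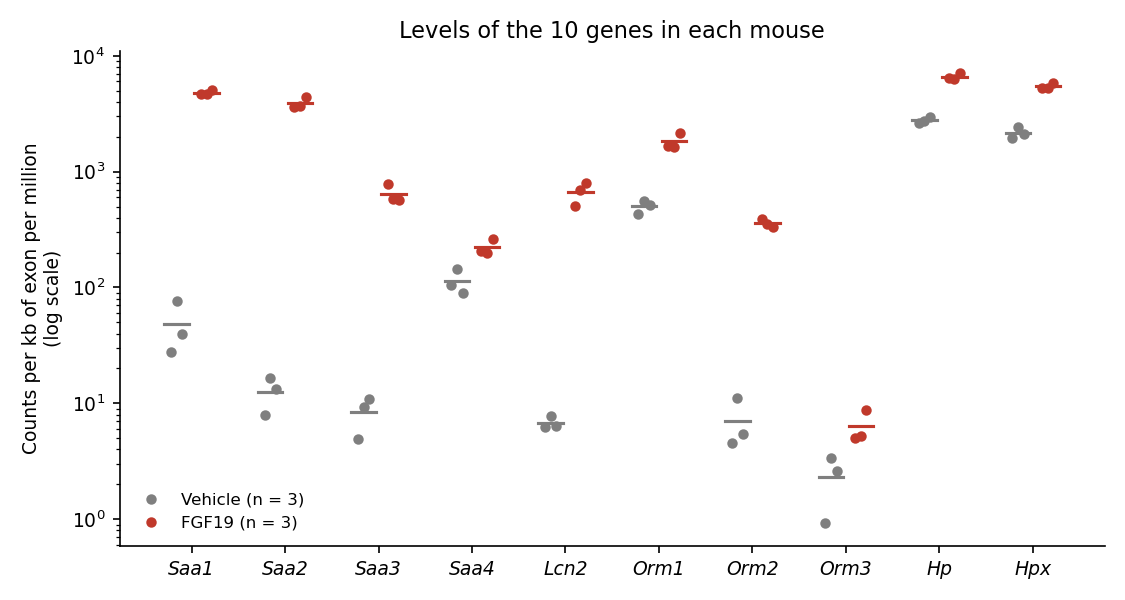
Level of each gene in each mouse, in CPM per kilobase of exon on a log scale, with grey points for vehicle-treated mice, red points for FGF19-treated mice (n = 3 each) and a bar at each group mean. Every red point lies above every grey point of the same gene, with a gap that is widest for Saa2 and narrowest for Saa4.

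Saa1 encodes one of the main circulating serum amyloid A proteins. Its level was 16.9, 46.7 and 23.9 CPM in vehicle-treated mice 1, 2 and 3, and 2836, 2833 and 3096 CPM in FGF19-treated mice 1, 2 and 3. Vehicle-treated mouse 2 stood well above the other vehicle-treated mice, whereas the FGF19-treated mice were close together and all far above them. The group means were 29.2 ± 15.6 CPM (SD, n = 3) and 2922 ± 151 CPM (SD, n = 3), a log2 fold change of 6.65 (standard error 0.362) in the edgeR fit, or 100.4-fold. This value rested in part on vehicle-treated mouse 2, without which the log2 fold change was 7.16.

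Saa2, the neighbour that encodes the other main circulating form, had the largest difference of all genes tested. It was at 4.86, 10.2 and 8.04 CPM in the vehicle-treated mice, from 102, 192 and 162 counts, and at 2190.4, 2235 and 2707 CPM in the FGF19-treated mice, from 47088, 48628 and 59795 counts. The lowest FGF19-treated mouse was 215-fold above the highest vehicle-treated mouse. The log2 fold change was 8.28 (standard error 0.271), or 310.0-fold between group means of 7.69 ± 2.67 and 2377 ± 286 CPM (SD, n = 3 each).

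Saa3 encodes the form best known from macrophages and adipose tissue. Its level was 2.62, 4.93 and 5.81 CPM in the vehicle-treated mice and 412, 310.0 and 301 CPM in the FGF19-treated mice. Here FGF19-treated mouse 1 was the highest and mouse 3 the lowest, whereas mouse 3 was the highest for Saa1 and Saa2. The log2 fold change was 6.26 (standard error 0.264), or 76.8-fold, with means of 4.45 ± 1.65 and 341 ± 61.9 CPM (SD, n = 3 each).

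Saa4 differed least of the family. It was at 216, 294 and 182 CPM in the vehicle-treated mice and at 424, 406 and 535 CPM in the FGF19-treated mice. The groups did not overlap, but the lowest FGF19-treated mouse was only 1.38 times the highest vehicle-treated mouse, which was mouse 2. The means of 230.4 ± 57.6 and 455 ± 70.0 CPM (SD, n = 3 each) gave a log2 fold change of 0.98 (standard error 0.175), or 1.98-fold.

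The make-up of the Saa transcripts therefore differed between the groups, as the plot of family shares shows. Per kilobase of exon, Saa4 made up 63.0% ± 7.98 (SD, n = 3) of the summed Saa level in vehicle-treated mice and 2.33% ± 0.185 (SD, n = 3) in FGF19-treated mice. Saa1 made up 25.3% ± 6.08 and 50.3% ± 1.02, and Saa2 6.93% ± 1.60 and 40.6% ± 2.02. Per kilobase, the order of the 4 genes thus went from Saa4, Saa1, Saa2, Saa3 to Saa1, Saa2, Saa3, Saa4. Within each mouse, the ratio of Saa1 to Saa2 per kilobase was between 2.99 and 4.61 in the vehicle group and between 1.15 and 1.30 in the FGF19 group, so the pair was nearer to equal after FGF19 treatment. The share depends on length, because the exons of Saa4 span 2033 bases. In raw counts Saa4 took 85.1% of the vehicle group's Saa counts and 7.44% of the FGF19 group's, and in the vehicle group Saa1 took 10.4%, Saa2 2.85% and Saa3 1.71%. Saa3 took 5.64% of the FGF19 group's raw Saa counts, below Saa4, so the order of Saa3 and Saa4 there depends on length.

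**Figure D2:**
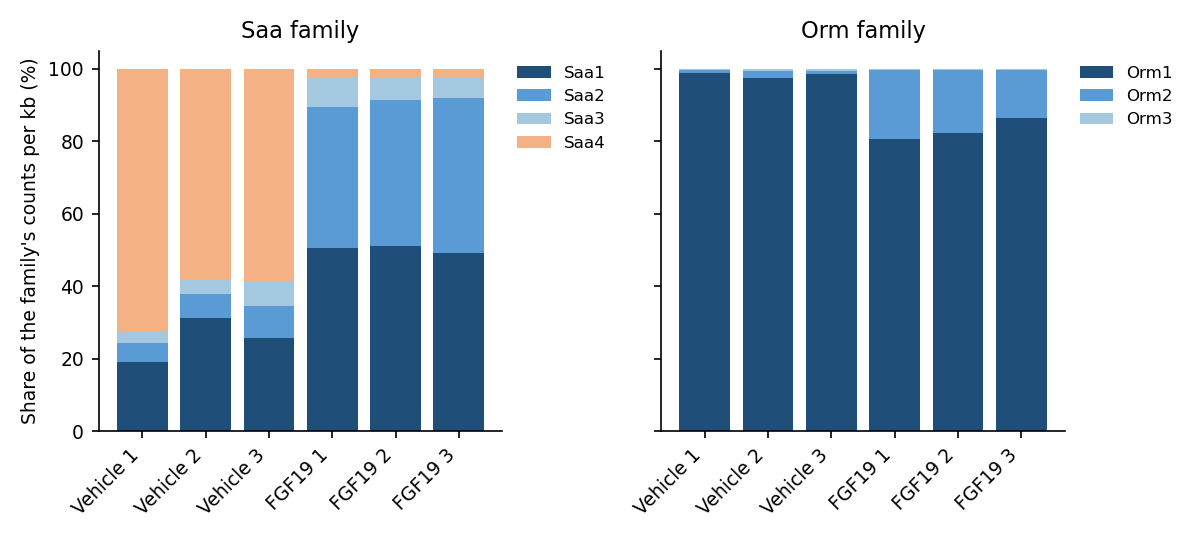
Share of each gene in the summed level of its family, in percent of counts per kilobase of exon, for each of the 6 mice, with the Saa family on the left and the Orm family on the right. Saa4 is the largest part of the Saa bar in all 3 vehicle-treated mice and a thin band in all 3 FGF19-treated mice, and Orm2 grows from 1.04% to 1.93% of the Orm bar to 13.2% to 19.1%.

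Lcn2 encodes lipocalin 2, which withholds iron from bacteria by binding their siderophores. It was at 5.34, 6.68 and 5.41 CPM in the vehicle-treated mice, a narrow range, and at 434, 596 and 677 CPM in the FGF19-treated mice. The lowest FGF19-treated mouse was 65.0-fold above the highest vehicle-treated mouse, although the FGF19-treated mice spread more among themselves than for Saa1. The means were 5.81 ± 0.753 and 569 ± 123 CPM (SD, n = 3 each), a log2 fold change of 6.61 (standard error 0.203), or 98.0-fold.

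Of the orosomucoid genes, Orm1 was the most abundant in both groups. Its level was 328, 429.9 and 395 CPM in the vehicle-treated mice and 1268, 1263 and 1670.2 CPM in the FGF19-treated mice, with mouse 3 clearly the highest. The log2 fold change was 1.87 (standard error 0.145), or 3.64-fold, between means of 384 ± 51.7 and 1400.2 ± 234 CPM (SD, n = 3 each).

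Orm2 was low in the vehicle-treated mice, at 3.53, 8.58 and 4.22 CPM, and reached 303, 271 and 258 CPM in the FGF19-treated mice. As for Saa3, FGF19-treated mouse 1 was the highest and mouse 3 the lowest. The means of 5.44 ± 2.74 and 277 ± 23.1 CPM (SD, n = 3 each) gave a log2 fold change of 5.68 (standard error 0.282), or 51.3-fold. The value rested in part on vehicle-treated mouse 2, without which the log2 fold change was 6.16.

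Orm3 was the lowest of the 10 genes in both groups. It had 15, 49 and 41 counts in the vehicle-treated mice and 83, 88 and 150 counts in the FGF19-treated mice, which is 0.715, 2.60 and 2.04 CPM and 3.86, 4.04 and 6.79 CPM. The groups lay apart by a factor of 1.49 between their nearest mice, and the log2 fold change was 1.47 (standard error 0.389), or 2.77-fold, with the largest standard error of the 10 genes. The orosomucoid genes thus differed by 51.3-fold for Orm2, 3.64-fold for Orm1 and 2.77-fold for Orm3, although they adjoin and resemble each other. Orm2 made up 1.34% ± 0.51 (SD, n = 3) of the Orm level per kilobase in vehicle-treated mice and 16.6% ± 3.04 in FGF19-treated mice, while Orm1 made up 98.2% ± 0.655 and 83.1% ± 2.99.

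Hp, the haemoglobin scavenger, was the most abundant of the 10 genes in every group. Its level was 3512, 3705 and 4008 CPM in the vehicle-treated mice and 8624, 8395 and 9502 CPM in the FGF19-treated mice. Both groups were tight, with coefficients of variation of 6.68% and 6.61%, and they lay 2.09-fold apart at their nearest mice. The log2 fold change was 1.24 (standard error 0.105), or 2.36-fold.

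Hpx, the haem scavenger, was close to Hp in level and in difference. It was at 2889, 3601 and 3146 CPM in the vehicle-treated mice and at 7823, 7821 and 8528 CPM in the FGF19-treated mice. The log2 fold change was 1.33 (standard error 0.113), or 2.51-fold, between means of 3212 ± 361 and 8057 ± 408 CPM (SD, n = 3 each). The ratio of Hp to Hpx per kilobase was 1.13 to 1.40 in vehicle-treated and 1.18 to 1.23 in FGF19-treated mice, so these ranges overlapped, whereas those of Saa1 to Saa2 did not.

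**Figure D3:**
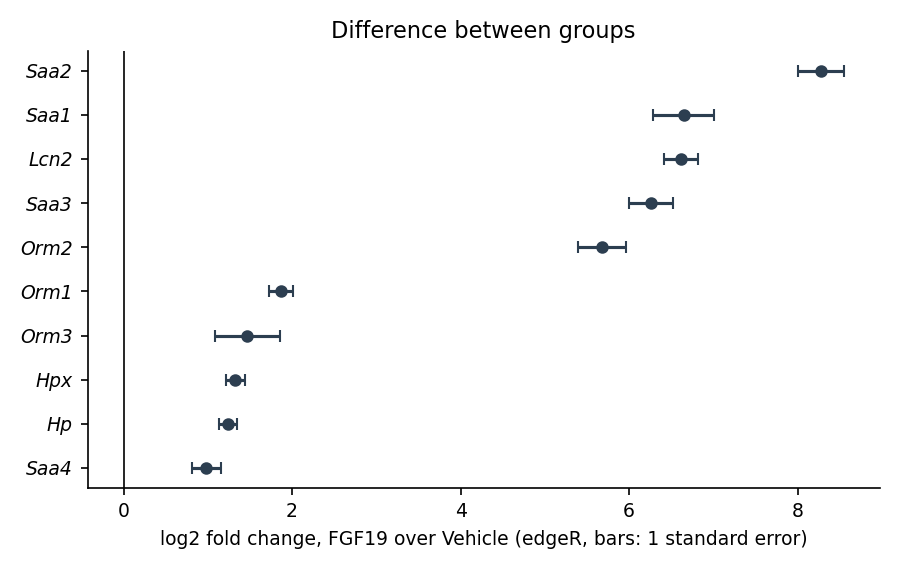
Log2 fold change of each gene, FGF19 over vehicle, from the edgeR fit with bars of 1 standard error, ordered by size. Saa2, Saa1, Lcn2, Saa3 and Orm2 lie between 5.68 and 8.28, and Orm1, Orm3, Hpx, Hp and Saa4 between 0.98 and 1.87.

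Levels of different genes were compared only after division by exon length, as RPKM, which is CPM per kilobase of exon. In vehicle-treated mice the order of mean RPKM was Hp at 2782, Hpx at 2170.4, Orm1 at 500.2, Saa4 at 113, Saa1 at 48.0, Saa2 at 12.6, Saa3 at 8.39, Orm2 at 7.03, Lcn2 at 6.81 and Orm3 at 2.31. The neighbours Saa2 and Saa3, Saa3 and Orm2, and Orm2 and Lcn2 overlapped in their ranges over the vehicle-treated mice, although Saa2 was above Saa3 within each of these mice, while the other neighbours lay apart. In FGF19-treated mice the order was Hp at 6573, Hpx at 5444, Saa1 at 4813, Saa2 at 3897, Orm1 at 1823, Lcn2 at 667, Saa3 at 642, Orm2 at 358, Saa4 at 224 and Orm3 at 6.34, and only Lcn2 and Saa3 overlapped. Saa1 and Saa2 thus came to stand beside Hp and Hpx, and Saa4 dropped from the fourth place to the ninth although its own level was higher. The 4 genes at or below the level of Saa2 in vehicle-treated mice, leaving Orm3 aside, are among the 5 with the largest folds, and Orm3, the lowest in both groups, had one of the small ones. The vehicle level is also the denominator of the fold, so nothing is read from this.

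Together the 10 genes took 0.763% ± 0.0526 (SD, n = 3) of all counts in vehicle-treated mice and 2.52% ± 0.0989 (SD, n = 3) in FGF19-treated mice. Most of the added counts came from genes with small fold changes. Of the added CPM, Hp gave 28.9% and Hpx 27.5%, Saa1 16.4%, Saa2 13.4%, Orm1 5.77% and Lcn2 3.20%. Saa1 moved from between rank 2754 and rank 5877 by count to between rank 41 and rank 43, and Saa2 from between rank 7428 and rank 9055 to rank 53 or 54. The 10 most counted genes of each library took 18.5% of the counts in vehicle-treated mice and 18.7% in FGF19-treated mice.

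Mice of the same group were ranked for each gene. Vehicle-treated mouse 2 was the highest vehicle-treated mouse for 8 of the 10 genes, all but Saa3 and Hp, and vehicle-treated mouse 1 was the lowest for 9, all but Saa4. FGF19-treated mouse 3 was the highest FGF19-treated mouse for 8 genes and the lowest for Saa3 and Orm2, in which mouse 1 was the highest. The lowest FGF19-treated mouse was mouse 1 for 3 genes, mouse 2 for 5 and mouse 3 for 2, and without TMM scaling for 6, 2 and 2. The counts of the highest mice were the same without TMM scaling. The members are measured in the same libraries and are not independent of each other, so the counts are a description. The coefficient of variation was between 6.68% (Hp) and 54.2% (Orm3) in the vehicle group and between 5.06% (Hpx) and 33.5% (Orm3) in the FGF19 group. It was smaller in the FGF19 group for 8 of the 10 genes, from Saa1 (53.4% and 5.17%) to Hp, where it was nearly the same (6.68% and 6.61%), and larger for Lcn2 (13.0% and 21.7%) and Orm1 (13.5% and 16.7%).

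The genes that act before and around these 10 in the acute phase response were examined in the edgeR fit to all 12559 genes by its quasi-likelihood test, with Benjamini-Hochberg adjustment and an adjusted p under 0.05. By this test 4.56% of all genes were higher and 2.84% lower after FGF19 treatment, 7.41% in either direction. The lists came from textbook knowledge, with earlier results of these data known. Of 10 cytokines upstream, 4 passed the filter on low counts and 0 passed the test, with a median log2 fold change of 0.23. None of the 4 had an unadjusted p under 0.05, and DESeq2 and limma-voom called 0 as well. Il6 was listed at 0 in 5 libraries and at 1 count in FGF19-treated mouse 3, Il22 was listed at 0 in all 6, and Tnf, Osm, Lif and Il11 had at most 5 counts in a library. Il1b was at 0.938 ± 0.435 CPM in vehicle-treated mice and 0.950 ± 0.19 CPM in FGF19-treated mice (SD, n = 3 each). Cytokine RNA from other organs was not measured here.

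Among 26 receptors and signalling genes for these cytokines, 25 were tested, 6 rose and 1 fell, with a median of 0.26. The gene with the largest rise was Irak3, an inhibitor of interleukin-1 and Toll-like receptor signalling, at 0.858, 1.22 and 0.844 CPM in the vehicle-treated mice and 6.79, 7.17 and 5.03 CPM in the FGF19-treated mice (log2 fold change 2.70, standard error 0.233, adjusted p = 0.000252 with edgeR). Il1rn, the interleukin-1 receptor antagonist, rose from 4.58 ± 1.08 to 14.4 ± 2.66 CPM (log2 fold change 1.66, edgeR adjusted p = 0.00171). Cd14 and Lbp, which present bacterial lipopolysaccharide to its receptor, rose by 1.41 and 0.88 on the log2 scale (edgeR adjusted p = 0.00300 and 0.00108). Irak2, which transmits the interleukin-1 signal, rose by 0.68 (edgeR adjusted p = 0.0140). Stat3 was at 88.7, 103 and 105 CPM in the vehicle-treated mice and 147, 142 and 127 CPM in the FGF19-treated mice, a log2 fold change of 0.49 (edgeR adjusted p = 0.0172). Il1rap, the accessory chain of the interleukin-1 receptor, fell by 0.33 (edgeR adjusted p = 0.0388). The calls of Irak2, Stat3 and Il1rap were lost when certain single libraries were left out, with edgeR adjusted p up to 0.0572, 0.0797 and 0.132.

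The remaining receptor genes that are named here by rule did not pass. Socs3, the feedback inhibitor induced by STAT3, was at 10.9 ± 5.19 and 13.8 ± 2.27 CPM (SD, n = 3 each), with a log2 fold change of 0.34 (edgeR adjusted p = 0.579) that was -0.0020 without vehicle-treated mouse 1 and 0.66 without vehicle-treated mouse 2. Il6ra had a log2 fold change of -0.42 (edgeR adjusted p = 0.157) and Il1r1 of 0.39 (edgeR adjusted p = 0.557). Vehicle-treated mouse 2 was the highest of the vehicle group for Socs3, Il6ra and Il1r1, as it was for most of the 10 genes. Without it, Il1r1 had a log2 fold change of 1.01 (edgeR adjusted p = 0.0269) and Il6ra one of -0.19 (edgeR adjusted p = 0.399).

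Of 21 transcription factors that act on acute phase promoters, all were tested, 1 rose and 1 fell, with a median of 0.08. The gene that rose was Stat3, given above. The gene that fell was Onecut1, a liver-enriched factor also called HNF6, at 5.79 ± 1.94 CPM in vehicle-treated mice and 2.19 ± 0.383 CPM in FGF19-treated mice (log2 fold change -1.40, edgeR adjusted p = 0.0159, and up to 0.0760 without certain single libraries). Cebpb was at 191, 128 and 246 CPM in the vehicle-treated mice and 212, 214 and 172 CPM in the FGF19-treated mice, so the groups overlapped (log2 fold change 0.08, standard error 0.20, edgeR adjusted p = 0.856), and the value was -0.13 without vehicle-treated mouse 2 and 0.32 without vehicle-treated mouse 3. Cebpd had a log2 fold change of 0.27 (edgeR adjusted p = 0.476), and Nfkbiz, an NF-κB cofactor, of 0.22 (edgeR adjusted p = 0.482). These are transcript levels at 6 h, and neither protein nor its activity was measured.

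A further list held receptors and partners through which the products of the 10 genes act or are cleared. Of 28 genes, 24 were tested, 2 rose and 2 fell, with a median of -0.02. Fpr2, a receptor for serum amyloid A on leukocytes, rose from 0.713 ± 0.379 to 2.56 ± 0.494 CPM (log2 fold change 1.83, edgeR adjusted p = 0.0141). Hmox1, the enzyme that breaks down haem, rose from 15.8 ± 2.84 to 25.9 ± 2.48 CPM (log2 fold change 0.71, edgeR adjusted p = 0.0166). Cd163, the macrophage receptor for the complex of haptoglobin and haemoglobin, fell from 13.1 ± 3.89 to 6.10 ± 1.91 CPM (log2 fold change -1.09, edgeR adjusted p = 0.0378). Asgr2, a subunit of the hepatocyte receptor for desialylated glycoproteins, fell by 0.40 (edgeR adjusted p = 0.0351).

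Cd163 was at 12.2, 17.3 and 9.63 CPM in the vehicle-treated mice and at 4.0, 6.57 and 7.74 CPM in the FGF19-treated mice, the opposite direction to Hp. Lrp1, which takes up the complex of hemopexin and haem, was at 577 ± 22.2 and 635 ± 46.7 CPM (SD, n = 3 each), a log2 fold change of 0.14 (edgeR adjusted p = 0.414). Slc22a17, a receptor described for lipocalin 2, was at 0.961 and 0.671 CPM (log2 fold change -0.50, edgeR adjusted p = 0.480), and Lrp2, another one, was too low to be tested. The calls of Fpr2, Hmox1, Cd163 and Asgr2 were each lost without certain single libraries, with edgeR adjusted p up to 0.0571, 0.0695, 0.105 and 0.159.

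Lcn2 belongs to the lipocalin superfamily, of which hepatocytes make several secreted members. Of the other lipocalin genes looked for, 16 were in the files, 5 of these were tested, and 0 rose or fell, with a median of -0.19. At an unadjusted p under 0.05 there were 0 higher and 2 lower, DESeq2 called 1 lower, limma-voom called 0, and leaving out FGF19-treated mouse 3 gave 3 lower with edgeR. The 5 genes tested, Rbp4, Ambp, Apom, C8g and Lcn13, had log2 fold changes between -0.41 and 0.15, against 6.61 for Lcn2. The orosomucoids belong to this superfamily too, but they are among the 10 genes, so this list left them out. Orm2, Orm1 and Orm3 had log2 fold changes of 5.68, 1.87 and 1.47.

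The other positive acute phase genes, which are known to increase in the liver during inflammation, were 28 in number, with Lbp, Cd14 and Il1rn from the list above among them, and 21 rose and 0 fell, with a median of 1.16. At an unadjusted p under 0.05 there was 1 lower, and DESeq2 and limma-voom called 0 lower. The 5 with the largest changes were A2m, a broad protease inhibitor (log2 fold change 3.52), Steap4, a metalloreductase (3.01), Serpina3n, a serine protease inhibitor (2.41), Apcs, which encodes serum amyloid P (2.20), and Lrg1, a leucine-rich plasma glycoprotein (1.73), with edgeR adjusted p between 1.36e-05 and 0.0193. A2m was low throughout, at 0.191, 0.106 and 0.149 CPM in the vehicle-treated mice and 0.605, 1.42 and 3.30 CPM in the FGF19-treated mice, and its call was lost on leaving out vehicle-treated mouse 1, 2 or 3, with an edgeR adjusted p of 0.0639, 0.0609 and 0.0838. Without FGF19-treated mouse 3, its log2 fold change was 2.72, below that of Steap4 in the same fit (3.20). Summed, the 28 genes took between 4.30% and 4.47% of the counts in vehicle-treated mice and between 7.77% and 8.03% in FGF19-treated mice. Hamp, the iron hormone hepcidin, was among the 7 that did not pass (log2 fold change -0.62, edgeR adjusted p = 0.195).

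Of 12 negative acute phase genes, whose levels are known to fall in inflammation, 0 rose and 0 fell, with a median of -0.18. At an unadjusted p under 0.05 edgeR gave 1 higher and 4 lower, DESeq2 called 1 higher and 3 lower, and limma-voom called 0 higher and 1 lower. Albumin (Alb) was at 69308 CPM in vehicle-treated mice and 66347 CPM in FGF19-treated mice, a log2 fold change of -0.06.

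**Figure D4:**
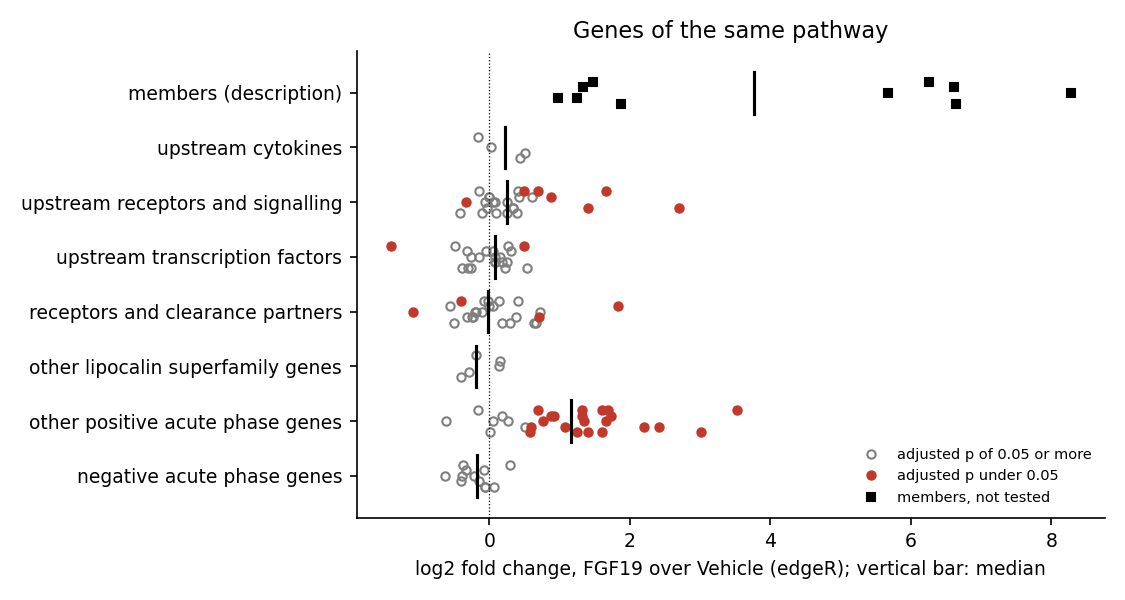
Log2 fold change of each tested gene, FGF19 over vehicle, by list, with filled red circles for an adjusted p under 0.05 in edgeR's test, open circles for the rest, squares for the 10 genes (not tested) and a vertical bar at each list's median. The 10 genes have a median of 3.77 and the other positive acute phase genes of 1.16, and the other lists have medians between -0.19 and 0.26.

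Genes next to the 10 were examined as well. For the loci of Saa, Orm, Lcn2, Hp and Hpx, the 3 nearest tested genes on each side were compared, 30 genes in all, of which 1 rose and 0 fell, with a median log2 fold change of 0.07. At an unadjusted p under 0.05 there were 3 higher and 0 lower, and DESeq2 and limma-voom each called 1 higher and 0 lower. The gene that rose was Ldha, a lactate dehydrogenase gene that begins 91490 bases beyond the end of the Saa locus, at 1094, 877 and 1054 CPM in the vehicle-treated mice and 2231, 2590.4 and 2299 CPM in the FGF19-treated mice (log2 fold change 1.23, standard error 0.114, edgeR adjusted p = 0.000348). Hps5 and Gtf2h1, which lie between Saa2 and Ldha, had log2 fold changes of -0.18 and -0.02. Saal1, only 1347 bases from Saa3, had 0.14, Akna, 1251 bases from Orm2, had 0.14, and Txnl4b, 1077 bases from Hp, had -0.14.

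**Figure D5:**
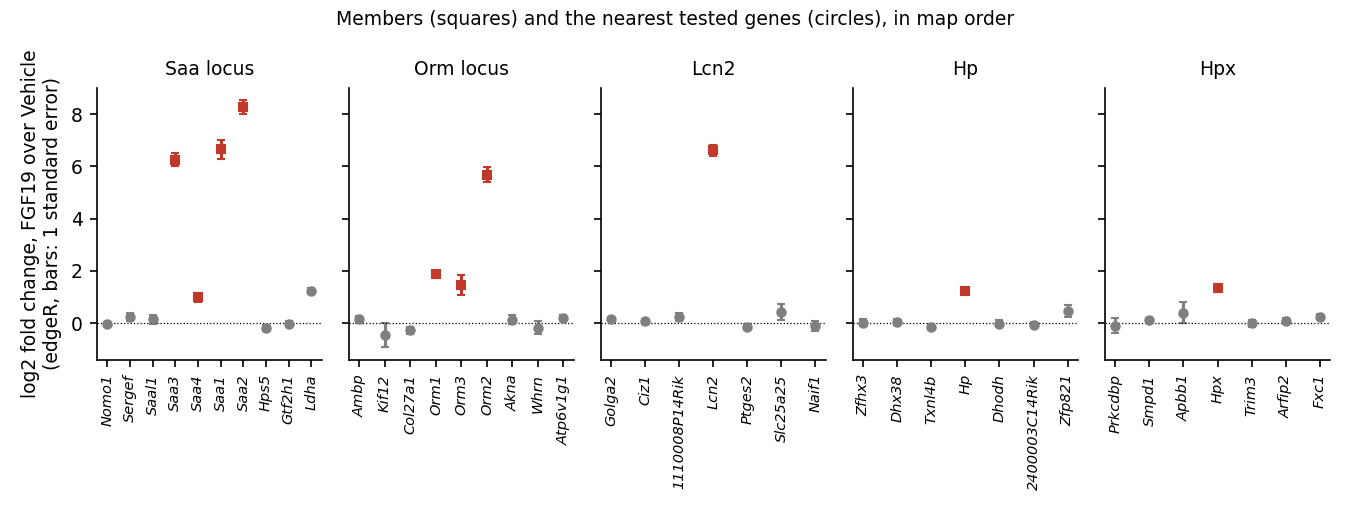
Log2 fold change, FGF19 over vehicle, of the 10 genes (red squares) and of the 3 nearest tested genes on each side of each locus (grey circles), in map order, with bars of 1 standard error from the edgeR fit. Of the 30 neighbours, Ldha at 1.23 is the one that passed the test.

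Several of the 10 genes are also expressed outside hepatocytes, Lcn2 in neutrophils and Saa3 in macrophages, so markers of other cells were set beside them. The neutrophil list, of which 11 of 12 genes were in the files, summed to 2.62 to 3.92 CPM in vehicle-treated mice and 6.93 to 9.65 CPM in FGF19-treated mice. Of its 3 tested genes S100a9 rose (log2 fold change 2.16, edgeR adjusted p = 0.0292), and Csf3r did not pass, at 1.72, 1.70 and 1.59 CPM in the vehicle-treated mice and 2.65, 3.91 and 2.31 CPM in the FGF19-treated mice (log2 fold change 0.82, edgeR adjusted p = 0.0773), nor did Cxcr2 (log2 fold change 0.74, edgeR adjusted p = 0.515). Of those too low to be tested, Retnlg was at 0.0530 to 0.149 CPM and 0.226 to 0.558 CPM, Mmp8 at 0.0496 to 0.159 CPM and 0.272 to 0.372 CPM, S100a8 at 0.0953 to 0.424 CPM and 0.407 to 1.75 CPM and Elane at 0.149 to 0.212 CPM and 0.184 to 0.419 CPM, in the vehicle-treated and FGF19-treated mice. The granule genes Camp, Mpo, Ltf and Ngp were at 0 to 0.272 CPM in all libraries. The Kupffer cell and macrophage list of 8 genes summed to 189 to 236 CPM and 196 to 230.2 CPM, so these ranges overlapped, and 2 genes rose, the scavenger receptor Marco (log2 fold change 2.29, edgeR adjusted p = 0.00105) and Cd68 (0.66, edgeR adjusted p = 0.00932). The other 6 did not pass, with log2 fold changes of -0.54 for Vsig4 (edgeR adjusted p = 0.0755), -0.29 for Clec4f, -0.22 for Cd5l, 0.04 for Csf1r, 0.09 for Timd4 and 0.36 for Emr1 (edgeR adjusted p = 0.155). Vsig4 was at 17.0, 24.4 and 18.7 CPM in the vehicle-treated mice and 11.9, 13.5 and 15.8 CPM in the FGF19-treated mice, without overlap. The adipocyte list of 8 summed to 201 to 208 CPM and 191 to 229 CPM, of which Pnpla2, a lipase gene also expressed in liver, gave 150.4 to 187 CPM in each library. Adipoq and Plin1 were at 0 to 0.106 CPM and Lep and Retn at 0, and the 1 gene of the list that was called was Fabp4 (0.51, edgeR adjusted p = 0.0344). What cells carrying these 4 called markers contribute to the levels of Saa3 and Lcn2 was not tested.

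Blood is a source of the haemoglobin that Hp binds. The erythroid list of 8 genes summed to 57.8 to 79.4 CPM in vehicle-treated mice and 43.6 to 57.7 CPM in FGF19-treated mice. Only 1 of the 8 was tested, Alas2, which made up nearly all of the sum. Alas2 was at 77.1, 78.6 and 57.2 CPM in the vehicle-treated mice and 48.1, 43.6 and 57.5 CPM in the FGF19-treated mice. It was not called (log2 fold change -0.51, edgeR adjusted p = 0.0645). Hba-a1, Hba-a2, Hbb-b1 and Hbb-b2 were listed at 0 in counts that leave out reads aligned to several places. Beta-s, a beta globin gene noticed after its values were seen, was at 165, 433 and 224 CPM in the vehicle-treated mice and 133, 108 and 156 CPM in the FGF19-treated mice (log2 fold change -1.05, edgeR adjusted p = 0.0708). Vehicle-treated mouse 2 was the highest for Beta-s as it was for 8 of the 10 genes, and the part of blood in that mouse's levels was not tested. Of the lists for sinusoidal endothelial cells, stellate cells, cholangiocytes and pancreatic acinar cells, 0 genes were called, with 8, 8, 5 and 2 genes tested.

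Last, the genes most like some of the 10 were found by the root mean square difference, over the 6 libraries, of log2 levels taken relative to the vehicle mean, with a smaller value for a closer likeness. For Hp they were Siglece (0.0824), Fgg (0.0892) and Stap2 (0.0993), and for Hpx Fgb (0.0764), Siglece (0.0823) and Fgg (0.0841). Fgb and Fgg encode chains of fibrinogen, themselves acute phase proteins, and Siglece encodes a receptor of myeloid cells. Saa2, Lcn2 and Orm2 had no such close match outside the 10. Their nearest genes were the same, the chemokine gene Cxcl9, the endoplasmic reticulum gene Derl3 and the chemokine gene Ccl5, at 2.28, 2.91 and 3.31 from Saa2, at 1.13, 1.73 and 2.07 from Lcn2 and at 0.606, 1.07 and 1.51 from Orm2. Derl3 had a log2 fold change of 4.49, or 5.08 without vehicle-treated mouse 2. Cxcl9 was at 4.10, 7.10 and 6.21 CPM in the vehicle-treated mice and 231, 343 and 119 CPM in the FGF19-treated mice, where mouse 2 was the highest, unlike Lcn2 and Saa2, in which it was mouse 3. These likenesses were measured on the comparison that chose the 10 genes and describe 6 libraries only.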

How the data were processed

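RNA-seq of 6 mouse livers was analysed. The authors aligned paired-end reads of 100 bases with STAR (2.5.3a in the submitters' processing notes, while the paper's methods and reporting summary name other versions) and counted them on mm9 exons with featureCounts 1.5.2. The deposited count of each gene is a raw number of reads, counted without strand, with mates counted separately and reads aligned to several places left out. The authors' table of log2 fold changes, mean log2 CPM, p-values and FDR from their own comparison was not used.

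The analysis was run with edgeR 4.0.16 under R 4.3.3. Its filterByExpr left 12559 genes, TMM factors were between 0.964 and 1.03, and FGF19 was compared with vehicle by the quasi-likelihood test without covariates, with Benjamini-Hochberg adjustment over all genes tested and calls at an adjusted p under 0.05. The study names edgeR but not the kind of test. CPM and RPKM use TMM-scaled library sizes. Pairs of libraries differed by more than sampling noise (chi-square per degree of freedom at least 8.685). An exact permutation test of 3 against 3 mice cannot go below p = 0.1, so none was run. Scripts were tested on simulated data.

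The 10 genes and all lists were chosen with earlier results of these data known. Named genes are the 10, up to the 5 largest called changes of each list, 11 pathway genes named whatever their result (Stat3, Socs3, Cebpb, Cebpd, Nfkbiz, Cd163, Lrp1, Slc22a17, Hmox1, Il6ra and Il1r1), called neighbours, and the 3 genes most like each of Saa2, Lcn2, Orm2, Hp and Hpx on log2(CPM + 0.5). Alternatives were DESeq2 1.42.0, limma-voom (limma 3.58.1), no TMM, other filters, p under 0.01, a replicate block and each library left out. Sequences were read from the mm9 genome. Protein sequences were not used here.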

Additional observations from a re-analysis of the deposited data

How the results depend on the processing

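The log2 fold changes of the 10 genes kept their direction in each of the 12 alternative fits (11 for Orm3), with ranges of 8.03 to 8.53 for Saa2, 6.37 to 7.16 for Saa1, 6.48 to 6.78 for Lcn2, 5.99 to 6.51 for Saa3, 5.44 to 6.16 for Orm2, 1.72 to 1.95 for Orm1, 1.08 to 1.84 for Orm3, 1.26 to 1.42 for Hpx, 1.19 to 1.29 for Hp and 0.84 to 1.20 for Saa4. With at least 1 CPM in every library Orm3 was dropped and the median of the others was 5.69, and leaving out single libraries gave medians of 3.603 to 4.06. Values of low genes such as Orm3, A2m and Il6 rest on few counts and on 3 mice a group, and whether depth limits them was not tested.

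The count of all genes higher was 236 to 1015 and that of genes lower 91 to 926 when a library was left out. The higher count was 323 without vehicle mouse 1, 236 without vehicle mouse 3, 295 without FGF19 mouse 1, 276 without FGF19 mouse 2 and 1015 without FGF19 mouse 3. The lower count was 168, 202 and 107 without vehicle mouse 1, 2 and 3 and 118, 91 and 926 without FGF19 mouse 1, 2 and 3, and 626 at p under 0.01.

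With the replicate number as a block, 370 genes were higher and 164 lower, 0 receptor and signalling genes were lower, 0 transcription factors were higher and 1 clearance gene was lower. Same-numbered mice did not deviate together (correlations of -0.0313, -0.181 and -0.182), so the numbers do not pair the mice.

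Leaving out a library gave 0 to 1 receptor and signalling genes lower, 0 to 2 transcription factors higher and 0 to 3 lower, 0 to 2 clearance genes higher and 0 to 6 lower, 0 to 3 other lipocalins lower, and 0 to 2 negative acute phase genes lower. The highest of each was found without FGF19 mouse 3, and that of clearance genes higher also without vehicle mouse 3. With at least 1 CPM in every library 1 clearance gene was higher. DESeq2 called 1 other lipocalin lower, and 1 negative acute phase gene higher and 3 lower. Negative acute phase genes lower were 1 without TMM, 1 without a filter, 1 with limma-voom and 2 at p under 0.01. The other positive acute phase genes higher stayed between 17 and 21.

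Of 25 named genes called, 16 were called in each alternative fit in which they were tested, which was 12 fits, or 11 for Irak3, Derl3 and Ccl5, which did not have 1 CPM in every library. Single genes were not called again at p under 0.01. The call was lost in some for Stat3, Asgr2 and Il1rap (also under the block) and, only on leaving out a library, for Cd163, Hmox1, Irak2, Onecut1, Fpr2 and A2m, with adjusted p up to 0.159. Stat3 was lost without vehicle mouse 1 or 3 or FGF19 mouse 1 or 2, Asgr2 and Il1rap on leaving out any single library other than FGF19 mouse 3, Cd163 without vehicle mouse 1 or 2 or FGF19 mouse 1 or 2, Hmox1 without vehicle mouse 1 or 2 or FGF19 mouse 2, Irak2 without vehicle mouse 1, Onecut1 without vehicle mouse 1 or 3 or FGF19 mouse 2, Fpr2 without vehicle mouse 1 or FGF19 mouse 1 or 2, and A2m without vehicle mouse 1, 2 or 3. The cause was not tested.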
